A study of Mus musculus with 6 samples.

Results

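The oxidative phosphorylation subunits are the protein parts of the 5 complexes of the respiratory chain and ATP synthase. They were taken from the deposited matrix of read-pair counts by symbol: the Nduf subunits of complex I, Sdha to Sdhd of complex II, the Uqcr genes of complex III, Cox4 to Cox8 genes of complex IV, the Atp5 genes of complex V, and the protein-coding genes of mitochondrial DNA. Pseudogene names were left out and a summed count of at least 60 over the 6 libraries was required, which gave 96 of 57010 genes, 83 encoded in the nucleus and 13 in mitochondrial DNA. The nuclear genes comprise 37 of complex I, 4 of complex II, 8 of complex III, 17 of complex IV and 17 of complex V. The mitochondrial genes comprise 7 of complex I, 1 of complex III, 3 of complex IV and 2 of complex V. The member nearest the count limit was Ndufb4c, with 82 counts, and Ndufs6b, with 59 counts, lay just outside it. Another 4 IDs fell under the limit and 7 carried a pseudogene name. The rule read the name alone, and 2 members, Ndufb4c and Cox6c2, are listed as processed pseudogenes in the GENCODE M21 annotation. They are kept as the rule has them. All 96 genes passed the filter on low counts, so none was lost between the rule and the test.

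The study sequenced poly(A)-selected RNA of whole gastrocnemius, a predominantly fast calf muscle, from untreated mice aged 3 months. The mutant group held 3 animals of the strain B6.A-Dysfprmd/GeneJ, homozygous for the Dysfprmd allele of the membrane repair gene Dysf, and the control group 3 wild type animals labelled C57BL/6, each an independent animal per the labels. The controls were 3 males, while the mutants were 1 male (replicate 3) and 2 females (replicates 1 and 2), which partly confounds sex with genotype. The germline allele is present in every cell type of the muscle, and in bulk tissue fewer cells of a type and less RNA per cell cannot be told apart.

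Library totals ran from 35042245 to 43733641 counted read pairs. CPM below means a read-pair count divided by the TMM-scaled library size and set to a common total, and a log2 fold change is mutant over control. Control animals had 72.3, 99.8 and 145 CPM of Dysf, and mutants 15.8, 14.7 and 20.3 CPM (log2 fold change -2.64, SE 0.28, edgeR adjusted p = 0.0249). A pair of strain-dependent transcripts went against the C57BL/6 label of the controls: H2-Ea-ps stood at 2.37 to 3.44 CPM and Ifi202b at 1.02 to 7.69 CPM there, against at most 0.0264 and 0 CPM in the mutants. Nnt, partly deleted in mice of the C57BL/6J substrain, did not go against it, at 0.102 to 0.136 CPM in the controls and 0.185 to 0.407 CPM in the mutants. A difference in strain background and the loss of dysferlin cannot be told apart in any comparison below. The 12 fast glycolytic fibre markers summed to between 152658 and 202742 CPM in the 6 libraries, so the defining markers of fast muscle were present in each. Control replicate 1 stood apart, with 9.78% of its read pairs mapping to several places against 5.83% to 7.52% in the others. Its weight is given below for the nuclear and mitochondrial medians and for the Cox7a and Cox4 isoform ratios. Medians of single complexes were not recomputed without it.

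Oxidative phosphorylation passes electrons from NADH and succinate through complexes I to IV to oxygen and uses the proton gradient so formed to make ATP at complex V. Complex II is built from nuclear genes alone, whereas the other complexes join nuclear subunits, imported from the cytosol, to a core made inside the organelle. Mitochondrial DNA is transcribed as long precursors from both strands, which are then cut into single RNAs. Slow and oxidative muscle fibres hold more mitochondria than fast glycolytic ones, and heart and skeletal muscle use their own isoforms of some complex IV subunits.

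Copies of mitochondrial DNA inserted in nuclear chromosomes bear on which mitochondrial RNAs could be counted, since read pairs that match 2 places equally well were not counted. The sequences are from the GENCODE M21 transcripts (GRCm38). The first 61 bases, 1 read length, of mt-Co2, mt-Co3 and mt-Atp6 are shown with the same stretch of their annotated copies on chromosome 1, which have the same letters throughout. The stretch of mt-Co1 from base 459 to base 519 is shown with its copy Gm13340 on chromosome 2, and capitals mark the 4 bases at which these differ.
mt-Co2: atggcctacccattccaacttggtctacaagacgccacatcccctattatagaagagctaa
Gm28661: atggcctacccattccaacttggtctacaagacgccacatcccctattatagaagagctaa
mt-Co3: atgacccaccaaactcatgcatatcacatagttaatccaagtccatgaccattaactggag
Gm28437: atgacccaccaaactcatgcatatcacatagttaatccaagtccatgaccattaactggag
mt-Atp6: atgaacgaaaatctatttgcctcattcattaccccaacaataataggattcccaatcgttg
Gm10925: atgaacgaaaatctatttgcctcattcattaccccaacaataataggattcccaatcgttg
mt-Co1: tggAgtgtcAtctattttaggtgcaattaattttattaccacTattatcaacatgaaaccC
Gm13340: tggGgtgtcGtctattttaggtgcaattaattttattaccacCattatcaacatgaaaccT

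Full-length alignment gave the same picture. The copies Gm28661, Gm28437 and Gm10925 were identical to 681 bases of mt-Co2, 783 of mt-Co3 and 678 of mt-Atp6. Gm10222 matched 294 bases of mt-Nd4l without a difference, and Gm28438 matched 345 bases of mt-Nd3 with 1 mismatch. Gm28439 matched 876 bases of mt-Nd4, 63.6% of that transcript, without a difference. Gm13340 covered all 1545 bases of mt-Co1 at 97.6% identity, with 37 mismatches. The best copies of mt-Cytb and mt-Nd6 were less alike, at 92.9% and 93.6% identity.

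No nuclear or mitochondrial subunit gene differed between mutants and controls by the test. edgeR called 0 of 83 nuclear and 0 of 13 mitochondrial genes at an adjusted p below 0.05, where 0.199% of all 15589 genes tested were called. At an unadjusted p below 0.05 the counts were again 0 and 0, against 6.94% of all genes. DESeq2 also called 0 of the 96, with 1.18% of all genes called, and edgeR on counts matched to the gene's strand called 0, with 0.18% of all genes called. In the authors' deposited table all 96 genes were listed and 0 had an adjusted p below 0.05, the smallest p among them being 0.0579, for Cox4i2.

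The nuclear differences were small and leaned to the mutant side. Of the 83 genes, 61 were higher and 22 lower, with a median log2 fold change of 0.06 (range -0.34 to 0.76), against -0.0015 over all genes tested. The upper end of that range is the annotated pseudogene Cox6c2, and without both pseudogenes the range ended at 0.71 and the median was 0.06. The difference was below 0.25 in size on the log2 scale for 75 of 83 genes, or 90.4%, against 61.3% of all genes tested. Among genes with a mean of at least 100 CPM, 60 of 63 nuclear subunit genes (95.2%) and 75.3% of all 1312 such genes were within that size. The 95% interval of a nuclear gene reached a median of 0.44 to either side on the log2 scale, a factor of 1.36, and 79 of 83 intervals lay within a log2 difference of 1. Smaller shifts were not resolvable with 3 animals a group.

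The direction of the nuclear median rested on single libraries. It was 0.18 without control replicate 1 and 0.18 without mutant replicate 2, and it was -0.02 without control replicate 2, -0.01 without mutant replicate 1 and -0.02 without mutant replicate 3. Without control replicate 3 it was 0.01. With sex as a covariate it was 0.17. Since every control was male, that value sets mutant replicate 3 alone against the 3 controls, and a fit to the males only is the same comparison.

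**Figure D1:**
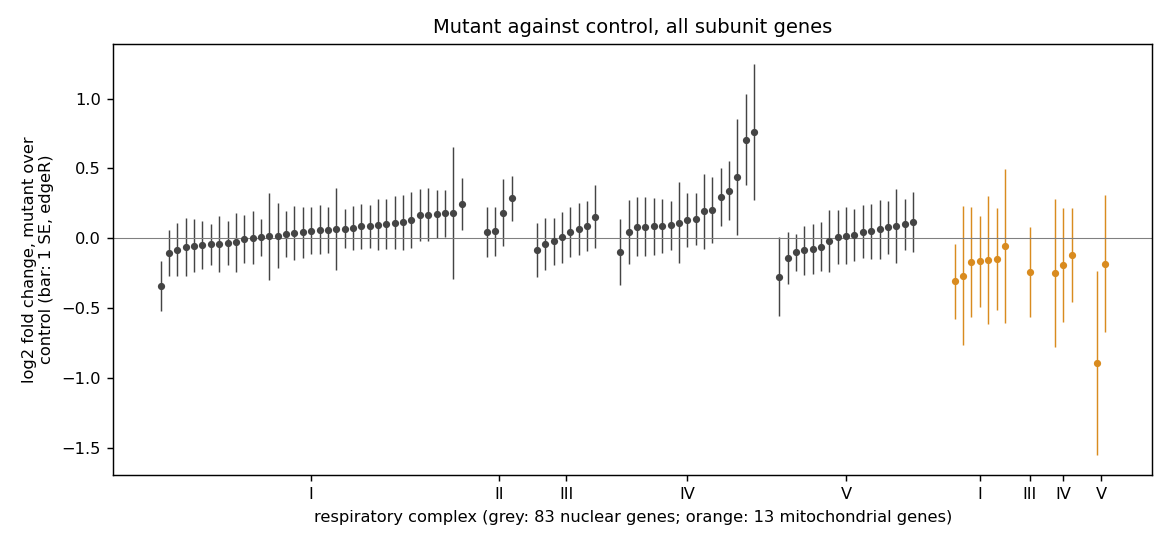
Log2 fold change of mutant over control for each of the 96 subunit genes, ordered within each complex, with bars of 1 SE from edgeR (3 animals a group). Grey points are nuclear and orange points mitochondrial genes. Most nuclear points lie within 0.25 of zero, complex IV has its highest points at the right end of its block, and all 13 orange points lie below zero with longer bars.

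Complex I takes electrons from NADH. Its 37 nuclear genes had a median log2 fold change of 0.05, with 26 higher and 11 lower. The lowest was Ndufs4, an accessory subunit whose loss in humans causes Leigh syndrome. It had 187, 131 and 157 CPM in controls and 134, 104 and 136 CPM in mutants (log2 fold change -0.34, SE 0.18, 95% interval -0.77 to 0.08, edgeR adjusted p = 0.787). The mutants were lower on average, but mutants 1 and 3 lay above control replicate 2. Ndufs4 was below zero in all 17 alternative settings, from -0.46 to -0.21. At the other end was Ndufs8, an iron-sulfur subunit, at 130, 89.6 and 99.2 CPM in the controls and 139, 104 and 134 CPM in the mutants (0.24, SE 0.19, edgeR adjusted p = 0.86). Ndufa13, an accessory subunit also known as Grim19, had a fold change of 0.18 (SE 0.17). Both groups overlapped in these genes. Ndufa4, now known to sit in complex IV though named for complex I, had the highest level per length of the Nduf genes, 840 CPM per kilobase of transcript, and a log2 fold change of -0.06 (SE 0.21).

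Complex II, succinate dehydrogenase, also acts in the citric acid cycle. All 4 of its genes were higher in the mutants, with a median of 0.12. Sdha, the flavoprotein that oxidises succinate, had 851, 675 and 807 CPM in controls and 1013, 862 and 969 CPM in mutants. Every mutant library lay above every control library, and Sdha was the sole member of the 96 whose groups did not overlap. That compares with 5.97% of all genes tested for mutants wholly higher and 6.09% for mutants wholly lower, beside which 1 of 96 is no more than the background. Its log2 fold change was 0.29 (SE 0.16, 95% interval -0.09 to 0.66, edgeR adjusted p = 0.812). It stayed above zero in all 17 settings, from 0.19 to 0.35. Sdhb, the iron-sulfur subunit and the highest of the complex per length at 330 CPM per kilobase, had a log2 fold change of 0.18 (SE 0.24). Sdhd, a membrane anchor, was nearest to zero at 0.05 (SE 0.18). Its value ran from -0.07 to 0.21 over the 17 settings and was above zero in 15 of them.

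Complex III, which passes electrons from ubiquinol to cytochrome c, had a median of 0.03, with 5 of 8 nuclear genes higher. The extremes were Uqcrq at 0.16 (SE 0.22) and Uqcrb at -0.08 (SE 0.19), both small subunits. Uqcrq was also the highest per length, at 663 CPM per kilobase. With the longest instead of the median principal transcript as its length, Uqcrh took that place.

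Complex V, ATP synthase, had a median of 0.02, with 10 of 17 genes higher. Atp5b, the catalytic beta subunit, had the highest level per length of all nuclear members, 1526 CPM per kilobase. Its CPM were 3115, 2826 and 2688 in the controls and 3041, 2403 and 3473 in the mutants, with a log2 fold change of 0.05 (SE 0.19). The groups overlapped fully. Atp5g3, a c-ring gene, was the highest by fold change at 0.12 (SE 0.22), and Atp5l, a membrane subunit, the lowest at -0.28 (SE 0.28). The Atp5l value changes with the strand counted, as described further on.

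Complex IV, cytochrome c oxidase, had the largest nuclear median of the 5 complexes, 0.13, with 16 of 17 genes higher and Cox7a2 alone lower. Among the named genes of complex IV, Cox4i1, Cox6b1, Cox7a2, Cox7a2l, Cox8a and Cox8b changed sign in some of the 17 settings. Cox4i2, Cox6a1, Cox6a2, Cox6b2, Cox6c2 and Cox7a1 kept theirs wherever they were tested. The complex IV median was not recomputed with single libraries left out. The highest fold changes belonged to genes of low level. Cox6c2, annotated as a pseudogene, had a log2 fold change of 0.76 (SE 0.49) at 0.248 to 0.74 CPM, and 49.7% of its 61-base windows also occur in Cox6c, so its count is uncertain. Cox4i2, the lung isoform of subunit 4, had 1.37, 0.997 and 1.25 CPM in controls and 1.88, 1.35 and 2.67 CPM in mutants. Its log2 fold change was 0.71 (SE 0.33, 95% interval -0.06 to 1.47, edgeR adjusted p = 0.753), the smallest p of the 96, and mutant replicate 2 fell below control replicate 1. The adjusted p of Cox4i2 was at least 0.584 over the 17 settings. Cox6a1 and Cox6a2 had fold changes of 0.34 (SE 0.21) and 0.30 (SE 0.21). Cox7a2l, an assembly factor of respiratory supercomplexes of which C57BL/6 mice carry a short form, had 105, 87.2 and 66.2 CPM in controls and 104, 91.7 and 87.7 CPM in mutants (0.14, SE 0.18).

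The muscle forms of complex IV subunits were compared with their ubiquitous partners within each library, per length of transcript. Promoters of 3 of these genes, from 250 bases before to 50 bases after the RefSeq start (GRCm38.p6), are shown because the pair Cox7a1 and Cox7a2 had ratios that separated the groups and Cox6a1 is the ubiquitous partner in the most unequal of the 3 pairs whose muscle form predominated. No promoter was listed for Cox6a2, the muscle partner of Cox6a1, so none is shown. Capitals mark the motifs that are counted below. Cox6a1 lies at chr5:115348909-115349208, minus strand, Cox7a1 at chr7:30183921-30184220, plus strand, and Cox7a2 at chr9:79759804-79760103, minus strand.
Cox6a1: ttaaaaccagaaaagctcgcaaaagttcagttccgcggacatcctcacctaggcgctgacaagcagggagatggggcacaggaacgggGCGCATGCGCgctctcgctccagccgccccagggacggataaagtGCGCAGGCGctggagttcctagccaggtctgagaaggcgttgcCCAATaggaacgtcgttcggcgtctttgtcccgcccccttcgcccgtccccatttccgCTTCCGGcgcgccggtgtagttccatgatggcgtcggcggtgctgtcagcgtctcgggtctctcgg
Cox7a1: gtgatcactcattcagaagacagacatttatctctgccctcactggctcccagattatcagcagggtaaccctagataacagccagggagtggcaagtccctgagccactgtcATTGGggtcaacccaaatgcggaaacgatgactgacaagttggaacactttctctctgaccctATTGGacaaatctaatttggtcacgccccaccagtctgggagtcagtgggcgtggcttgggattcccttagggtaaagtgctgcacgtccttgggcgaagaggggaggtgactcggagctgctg
Cox7a2: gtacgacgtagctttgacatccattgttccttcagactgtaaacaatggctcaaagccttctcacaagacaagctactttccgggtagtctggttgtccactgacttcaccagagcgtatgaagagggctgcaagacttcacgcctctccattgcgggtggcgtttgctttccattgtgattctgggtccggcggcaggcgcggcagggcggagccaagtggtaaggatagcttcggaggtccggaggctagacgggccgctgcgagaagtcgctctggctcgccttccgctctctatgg

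The muscle isoforms predominated in every library. Cox6a2 was 31.9, 28.3 and 21.4 times Cox6a1 in the controls and 31.5, 30.1 and 20.0 times in the mutants. The ratio of Cox8b to Cox8a was 18.8, 10.3 and 16.3 in the controls and 18.2, 15.9 and 13.1 in the mutants. Neither ratio separated the groups, with differences in mean log2 ratio of -0.01 and 0.09. Cox7a1 was 2.58, 2.24 and 2.32 times Cox7a2 in the controls and 3.11, 2.81 and 2.86 times in the mutants. All 3 mutants lay above all 3 controls, a difference in mean log2 ratio of 0.30 between 1.25 ± 0.11 and 1.55 ± 0.08 (SD, n = 3 each). Neither gene of this pair differed by itself: Cox7a1 had a log2 fold change of 0.19 (SE 0.27) and Cox7a2 of -0.10 (SE 0.24).

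Cox4i2 was a minor form beside Cox4i1, with log2 ratios of -8.64, -8.56 and -8.23 in the controls and -8.01, -8.0 and -7.58 in the mutants, again without overlap (difference 0.61). Cox6b2, the testis form, had log2 ratios to Cox6b1 from -10.2 to -8.86 that overlapped between groups. Over the 5 pairs the two-sided exact permutation test gave p = 0.1 for the Cox7a and Cox4 pairs, the smallest value 3 against 3 can give, and 0.25 after Benjamini-Hochberg adjustment. The other pairs had an exact permutation p of 0.6 or 0.9. Leaving out single libraries kept the Cox7a difference between 0.26 and 0.36 and the Cox4 difference between 0.47 and 0.74. These ratios divide 2 genes of 1 library and so do not depend on the scaling of library size.

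**Figure D2:**
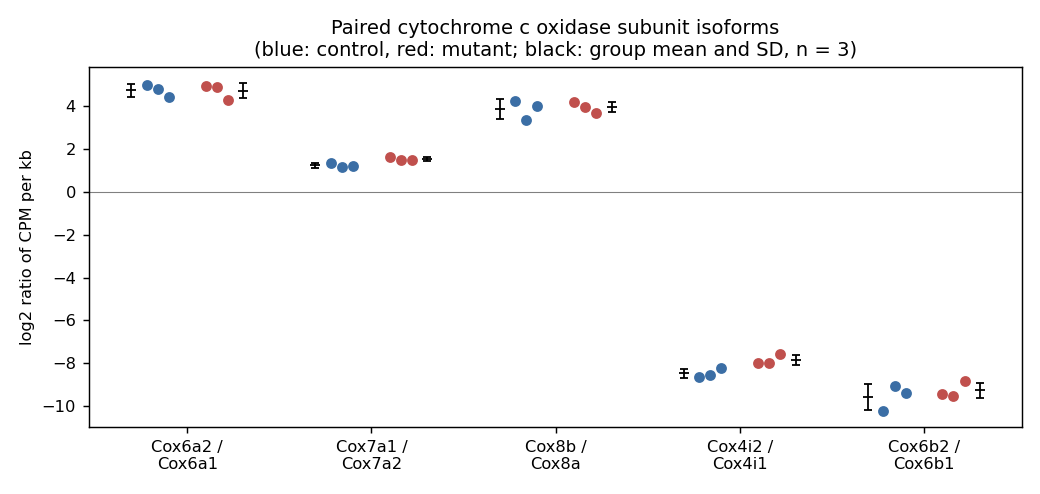
Log2 ratio of CPM per kilobase between paired isoforms of complex IV subunits, 1 point a library (blue control, red mutant), with the mean and SD of each group in black (n = 3). The Cox7a1 and Cox4i2 ratios of the mutants lie above those of the controls without overlap, and the other 3 pairs overlap.

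The motifs searched on both strands were GCGCANGCG (core of the NRF1 site), TCAAGGTCA (estrogen-related receptors), AAGATGGCG (YY1) and the ETS letters CCGGAAG, bound by GABP among other factors. The fifth was the box named for its letters, CCAAT. Promoters were listed for 65 of the 83 nuclear genes, 70 promoters in all. The NRF1 core was in 30.0% of them, against 6.25% of all 32851 promoters of the same length. The share was 22.9% against 8.86% for CCGGAAG, 10% against 1.40% for AAGATGGCG, 2.86% against 0.423% for TCAAGGTCA and 41.4% against 37.4% for CCAAT. Any of the first 4 was in 51.4% of the subunit promoters and 15.2% of all. In the promoters shown, Cox6a1 held 3 matches to the NRF1 core, overlapping ones included, with 1 CCGGAAG and 1 CCAAT, whereas Cox7a1 held 2 CCAAT and Cox7a2 none of the 5 motifs.

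Most nuclear subunit genes were high or low in the same libraries, in both groups. The median deviation of a gene from its own mean over the 6 libraries, in log2 CPM, was 0.22, -0.20 and -0.11 for the controls (replicates 1, 2 and 3) and 0.18, -0.25 and 0.15 for the mutants. Control replicate 1 held the highest value of 48 genes, mutant replicate 1 of 19 and mutant replicate 3 of 16. The lowest value fell in mutant replicate 2 for 43 genes, in control replicate 2 for 29 and in control replicate 3 for 9. Taking off each library's median lowered the median SD of a gene over the 6 libraries from 0.23 to 0.10 on the log2 scale. The spread between animals was thus larger than the difference between genotypes and was mostly shared by the genes.

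Some other lists moved with this pattern and others did not. The 12 slow and oxidative fibre markers, none of them at 0 counts, summed to 9346, 6820 and 2563 CPM for the controls (replicates 1, 2 and 3) and 10737, 3564 and 10021 CPM for the mutants. The 3 libraries with high subunit levels were also the 3 highest in these markers. Their log2 fold changes had a median of 0.47, with 11 of 12 higher and 0 called. The 18 citric acid cycle genes summed to 9388, 7843 and 8062 CPM in the controls and 8891, 7266 and 9548 CPM in the mutants, with the same 3 libraries highest. The assembly factors of complexes II and IV and the subunits and carriers outside the rule also had these 3 highest. So did the brown adipocyte markers, at 378, 180 and 252 CPM in the controls and 332, 229 and 292 CPM in the mutants. Genes that transcribe, process or maintain mitochondrial DNA summed to 647, 555 and 535 CPM in controls and 607, 592 and 578 CPM in mutants. There mutant replicate 2 stood above mutant replicate 3. Assembly factors of complex III and complex V had control replicate 3 above mutant replicate 3. Those of complex I had 539 CPM in both mutant replicates 2 and 3. The part of fibre type in the subunit values was not tested.

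**Figure D3:**
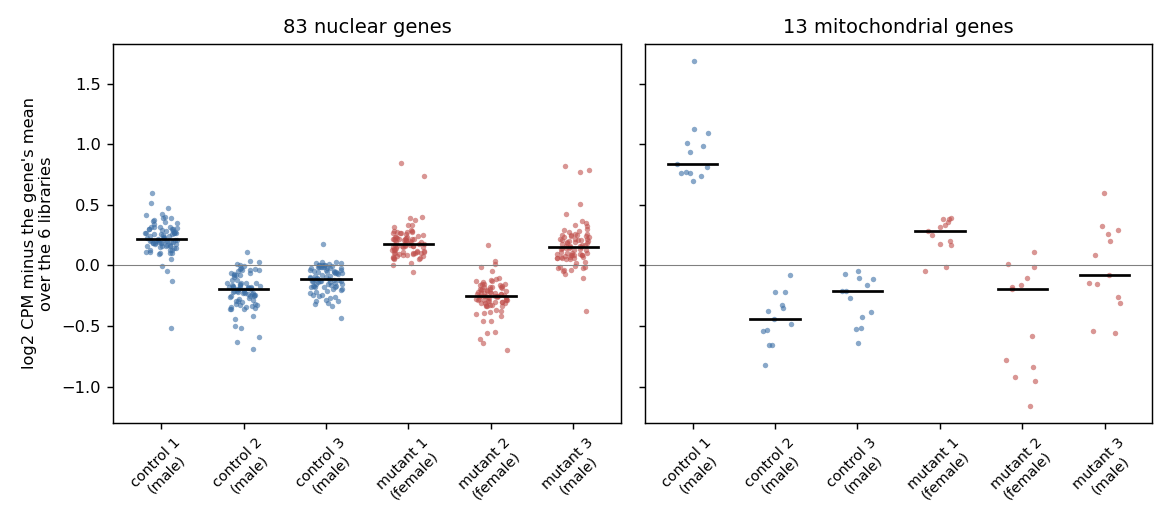
Log2 CPM of each subunit gene minus its own mean over the 6 libraries, for 83 nuclear genes (left) and 13 mitochondrial genes (right), with 1 point a gene, black bars at the median, blue for controls and red for mutants. Nuclear genes are high in control 1, mutant 1 and mutant 3, and mitochondrial genes stand far above their mean in control 1.

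The 13 mitochondrial genes were all lower on average in the mutants, with a median log2 fold change of -0.18 (range -0.89 for mt-Atp8 to -0.06 for mt-Nd4l). In none did the groups separate, and the adjusted p was 0.849 or more by edgeR. The common direction rested on control replicate 1, which held the highest value of all 13. Without it all 13 were higher in the mutants, with a median of 0.31. Leaving out another library gave medians from -0.43 to -0.09, with all 13 lower except without mutant replicate 2 (4 higher) and without mutant replicate 3 (2 higher). With sex as a covariate, where mutant replicate 3 alone again stands for the mutants, the median was -0.26, with 4 of 13 higher. The 95% intervals reached a median of 0.97 to either side, a factor of 1.96, so changes under about that size could not be seen.

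Single genes show the same pattern. mt-Co1, the catalytic core of complex IV, had 31072, 13367 and 16093 CPM in controls and 21504, 17342 and 16882 CPM in mutants (log2 fold change -0.12, SE 0.34). Control replicate 1 was far above the other controls, and the mutants lay between the controls. mt-Cytb, the complex III core, had 17098, 7888 and 9002 CPM in controls and 11357, 9016 and 8392 CPM in mutants (-0.24, SE 0.32). mt-Nd1, a membrane subunit of complex I, had 13768, 5113 and 7812 CPM in controls and 9578, 7995 and 6517 CPM in mutants (-0.15, SE 0.37). The other complex I genes had fold changes of -0.31 (mt-Nd5), -0.27 (mt-Nd3), -0.17 (mt-Nd4), -0.16 (mt-Nd6) and -0.16 (mt-Nd2). mt-Co2 and mt-Co3 were at -0.19 and -0.25 and mt-Atp6 at -0.18, each with an SE of at least 0.41.

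Mitochondrial members held 9.11%, 3.88% and 4.68% of all counts in the controls and 6.39%, 5.28% and 4.42% in the mutants. Nuclear members held 2.59%, 2.00% and 2.01% in the controls and 2.58%, 1.99% and 2.47% in the mutants. The count ratio of mitochondrial to nuclear members was 3.53, 1.94 and 2.33 in the controls and 2.48, 2.66 and 1.79 in the mutants. The share of multimapping pairs was 9.78%, 5.83% and 6.29% in the controls and 7.52%, 6.37% and 6.26% in the mutants, again highest in control replicate 1, and its part in the mitochondrial values was not tested.

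The level of the mitochondrial genes per length fell into separate ranges. On the gene's own strand mt-Co1 had 11808 CPM per kilobase, mt-Cytb 8758, mt-Nd1 8278, mt-Nd2 5638, mt-Nd5 3557 and mt-Nd4 2522. mt-Nd6, the one gene here on the other strand of mitochondrial DNA, had 411. The other 6 lay between 5.40 and 19.0 CPM per kilobase: mt-Co3, mt-Atp6, mt-Co2, mt-Atp8, mt-Nd3 and mt-Nd4l. mt-Co1 exceeded these by a factor of 621 to 2186, and the genes other than mt-Nd6 are known to be cut from shared precursor RNAs.

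Sequence shared with nuclear copies went with most of the low values. The share of 61-base windows that occur exactly in the transcript of another annotated gene was 100% for mt-Co2, 99.9% for mt-Co3, 99.5% for mt-Atp6, 98.7% for mt-Nd4l and 97.9% for mt-Nd3. Summed over the 6 libraries these genes had 3138, 3830, 3188, 426 and 549 counts, and their copies Gm28661, Gm28437, Gm10925, Gm10222 and Gm28438 had 3767, 3932, 4478, 308 and 2811. mt-Co1, with a share of 46.1%, had 4573260 counts. mt-Nd4 had a share of 61.9% and 879960 counts. The share was 7.06% for mt-Nd2 and 4.14% for mt-Nd5, and 0 for mt-Nd1, mt-Cytb and mt-Nd6. mt-Atp8 did not follow this order, with 621 counts and no window in another annotated transcript. The annotation used for these windows is of an earlier build than the counts, and alignment of the reads themselves was not tested. The fold changes of the 6 low genes describe the pairs that were assigned, and what part of their low level came from shared sequence was not tested.

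**Figure D4:**
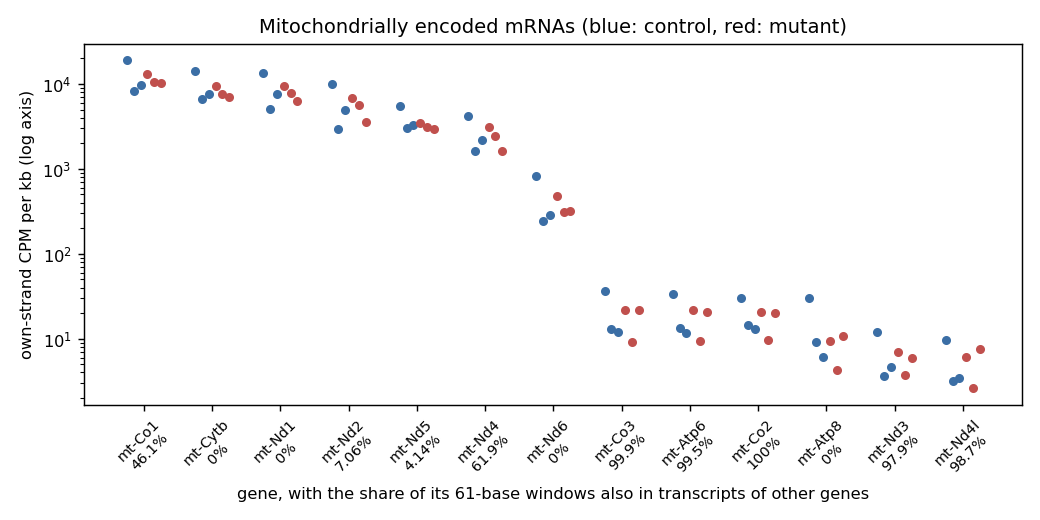
Level of the 13 mitochondrial mRNAs in CPM per kilobase on the gene's own strand (log axis), 1 point a library, blue for controls and red for mutants, with the share of 61-base windows found in other transcripts under each name. Control replicate 1 is the highest point of every gene, and 6 genes lie far below mt-Co1, 5 of them with shares of 97.9% or more.

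The deposited matrix counts read pairs without regard to strand, although the libraries were directional. mt-Nd6 had 427169 counts in the matrix, but 53720 on its own strand and 652749 on the opposite strand, which carries the sequence downstream of mt-Nd5. Its own strand held 6.11% to 9.43% of the stranded pairs. On its own strand mt-Nd6 had 431, 127 and 148 CPM in controls and 248, 160 and 167 CPM in mutants (log2 fold change -0.30, SE 0.48), with control replicate 1 the highest. Most stranded pairs at mt-Nd6 were thus opposite to the gene, and its matrix value does not describe mt-Nd6 alone.

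Some nuclear genes gained counts when strand was used, since pairs in an overlap with a gene on the opposite strand are left unassigned without it. Atp5l had 6119 counts without and 35049 with strand, 5.73 times, beside the antisense gene Gm30934. Its CPM on its own strand were 183, 120 and 134 in the controls and 154, 102 and 139 in the mutants, with a log2 fold change of -0.15 (SE 0.22). Ndufa11, a complex I assembly subunit, gained 2.58 times beside Vmac. Cox5a gained 2.51 times beside Gm26631, Ndufb2 2.24 times beside Gm16272, Atp5o 2.21 times beside Gm15976 and Ndufb6 1.76 times beside Smim27. The fold changes of some of these genes moved too: Ndufb2 went from 0.01 (SE 0.31) to 0.17 (SE 0.25), Ndufb6 from 0.08 (SE 0.16) to 0.02 (SE 0.16) and Atp5o from -0.02 (SE 0.22) to -0.08 (SE 0.20). The groups overlapped in all of them with either count. With strand-matched counts over all members the nuclear median was 0.06, with 62 higher and 21 lower, and the mitochondrial median -0.19, with all 13 lower.

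**Figure D5:**
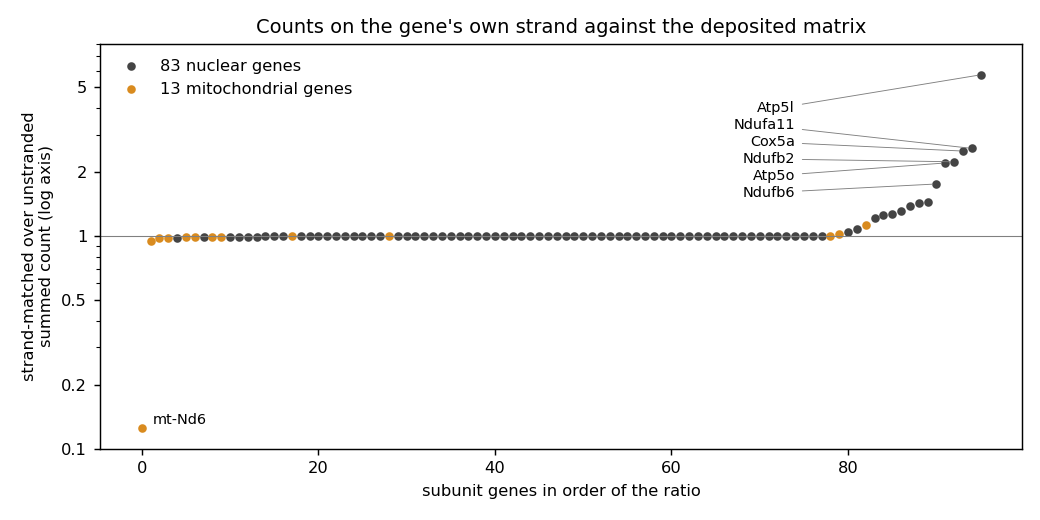
Summed strand-matched count over summed unstranded count (log axis) for each of the 96 subunit genes in order of the ratio, grey for nuclear and orange for mitochondrial genes. Most genes lie at 1, mt-Nd6 lies far below it, and 6 named nuclear genes lie above 1.7.

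Nuclear subunit genes shared less sequence with other genes. For 53 of 83 no 61-base window occurred in a transcript of another locus. The 5 with the largest shares were the pseudogene Ndufb4c and Atp5g2 (100% each), Atp5l (67.4%), Atp5g1 (53.7%) and Cox7c (51.9%), and their counts are uncertain for that reason. Ndufb4c had 82 counts and Atp5g2 24533, so a share of 100% did not always go with a low count.

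No gene of the other pathway lists was called. Of 64 assembly factors, 56 were tested, 36 higher and 20 lower, with 0 called and a median log2 fold change of 0.03. Uqcc3, an assembly factor of complex III, had 40.3, 32.2 and 38.2 CPM in controls and 28.2, 28.2 and 27.2 CPM in mutants (-0.41, SE 0.13, edgeR adjusted p = 0.572). Cox18, which inserts a complex IV core subunit into the membrane, had 7.07, 10.2 and 12.7 CPM in controls and 6.74, 5.93 and 5.52 CPM in mutants (-0.72, SE 0.24, edgeR adjusted p = 0.615). Both had every mutant below every control, as had Ttc19, a complex III factor with 67.8, 49.7 and 53.4 CPM in controls and 47.0, 47.9 and 43.4 CPM in mutants. These 3 of 56 compare with 6.09% of all genes tested. Uqcc3 and Cox18 were the 2 assembly factors with an unadjusted p below 0.05, against 6.94% of all genes, so both counts are no more than the background, and neither gene passed the adjustment. Of 24 tested genes that transcribe, process or maintain mitochondrial DNA, 13 were higher and 11 lower (median 0.03, 0 called). Trmt10c, a subunit of the mitochondrial tRNA-processing enzyme, had a log2 fold change of 0.36 (SE 0.18) and Polrmt, the mitochondrial RNA polymerase, of 0.22 (SE 0.13). The citric acid cycle genes were 10 higher and 8 lower (median 0.01, 0 called), with Idh2, the mitochondrial isocitrate dehydrogenase, at 0.74 (SE 0.40). Of 8 subunits and carriers that the rule leaves out, 5 were higher, and Ndufa4l2, a paralogue of Ndufa4, had the highest value at 0.53 (SE 0.25).

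Lists for other cell types were tested in the same fit with 0 genes called in each. All 10 adipocyte markers were higher in the mutants (median 0.84, summed level 297 to 626 CPM in controls and 509 to 689 CPM in mutants). Macrophage markers had 9 of 10 higher (median 0.34) and endothelial markers 8 of 8 (median 0.24). Red blood cell genes had 7 of 7 higher (median 0.55), but their summed level overlapped, at 772 to 2068 CPM in controls and 1368 to 2028 CPM in mutants. Fibroblast markers had 4 of 6 higher (median 0.12) and brown adipocyte markers 3 of 6 tested (median -0.01). Satellite cell and regenerating fibre markers had 1 of 6 higher (median -0.51) and heart muscle markers 1 of 3 tested (median -0.05). The satellite cell and regenerating fibre markers summed to 164 CPM in control replicate 2 and 48.3 to 72.4 CPM in the other libraries. Fibroblast markers summed to 5402 CPM in control replicate 3 and 6961 CPM in mutant replicate 3, against 818 to 1385 CPM elsewhere. Heart muscle markers summed there to 2792 and 3414 CPM, against 146 to 697 CPM elsewhere. All 7 neuromuscular junction and denervation markers were lower (median -1.58), with a sum of 1054 CPM in control replicate 2 and 56.4 to 99.4 CPM in the other libraries. The part of these in the subunit values was not tested.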

How the data were processed

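The authors deposited counts of read pairs for each gene: a matrix of the 6 libraries, and a file for each library that gives the count without strand and on either strand. Per the submitters' processing notes the tools were FastQC 0.12.1, MultiQC 1.28, STAR 2.7.11b, R 4.5.2 and DESeq2 1.50.2, on GRCm39. No annotation release is stated there. The matrix equalled the unstranded column in all 57010 genes. Entries naming no gene (18.5% to 22.3% of pairs) stayed out of library sizes. The authors' deposited comparison table holds log2 fold changes, p-values, Wald scores and mean normalized signal, and was used for its p-values of the subunit genes.

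The test was edgeR 4.0.16 (R 4.3.3) on all 6 libraries: TMM, filterByExpr (minimum count 10), robust quasi-likelihood F-test, no covariate, Benjamini-Hochberg adjustment over 15589 genes. Intervals are 95%. DESeq2 1.42.0, limma-voom 3.58.1, other scalings and filters, sex, males only, a replicate block, strand-matched counts and each library left out were alternatives. At 3 counts, the limit of detection was 0.0686 to 0.0856 CPM, for counting error only. Symbols matched 52029 IDs.

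Levels per length used the median length of the principal transcripts in GENCODE M21. The longest principal transcript was used first and was replaced after its values were seen, because it gave Atp5g1 a length of 4715 bases (Ndufb2, at 4371, was found afterwards). It is kept as an alternative and changed the length of 20 genes. Copies were aligned with blastn 2.17.0. Plots used matplotlib 3.10.9. Named genes were all mitochondrial members, the 8 nuclear members with the smallest p, the isoform pairs, Cox7a2l, the extremes of each complex among genes with a mean of at least 1 CPM, the highest per length, up to 2 genes per list by p, and Dysf; not every gene of each list is printed. Other genes named were chosen after their values were seen. The members and lists were chosen with earlier results of these data known. The procedure was tested on simulated data.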

Additional observations from a re-analysis of the deposited data

How the results depend on the processing

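Of all genes tested, edgeR called 31. DESeq2 called 184, edgeR without a filter on low counts 79, with the replicate block 11, and with sex as a covariate or in males only, which set the same 1 male mutant against the controls, 0 (882 and 594 genes at an unadjusted p below 0.05). Leaving out single libraries gave 6 to 49, with 49 without control replicate 2, 7 without mutant replicate 1 and 6 without mutant replicate 2. The cause was not tested. No subunit gene was called in any of these 17 settings. Same-numbered animals had correlations of their deviations of 0.23, -0.06 and 0.22. No correlations of differently numbered animals were set beside these, so they do not settle whether the numbers pair animals. Of 627 values for 37 named subunit genes, 52 had the opposite sign to the reported one, 12 of them with no library left out, and 13 genes kept their sign throughout. The longest principal transcript, an alternative chosen after seeing the data, left the differences in isoform ratio as they were and made Uqcrh the complex III gene highest per length. Leaving out the 2 annotated pseudogenes, also chosen after seeing the data, gave a nuclear median of 0.06, and complex IV then had 15 of 16 genes higher. With 3 animals a group, small shifts could not be resolved.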

Other observations

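Of the 2 ribosomal RNAs of mitochondrial DNA, 1 was higher and 1 lower on average in the mutants, and neither passed the test. In these poly(A)-selected libraries mt-Rnr1 had 1610, 989 and 825 CPM (controls) and 1585, 1172 and 1192 CPM (mutants) (log2 fold change 0.21, SE 0.28), and mt-Rnr2 had a log2 fold change of -0.08 (SE 0.26). The 8 transfer RNA genes encoded on the strand of mt-Nd6 had most of their stranded pairs on the opposite strand. Their own strand held 9.30% for mt-Tq (389 pairs against 3794), 2.63% for mt-Tp and 0.0996% for mt-Ts1 (22 against 22072). The other 5 were at 2.44% (mt-Tc, 1 against 40) or below.

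Unstranded counting left some nuclear genes that serve mitochondria at 0 or with far fewer counts than their own strand held. Slirp, which stabilises mitochondrial mRNAs, had 0 counts in the matrix and 6110 on its own strand. Sco2, a copper chaperone of complex IV, had 0 and 191, and Cox20, another assembly factor, had 122 and 3477. Sdhaf1, an assembly factor of complex II, had 564 and 3930.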
